A study of Mus musculus with 31 samples.

Results

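Precocious tiles are short stretches of CpG-poor DNA that were already partly methylated in Type5a oocytes, before most of the genome's late-gaining sequence had been filled in. They were found by rule among 100-bp tiles with at least 3 CpG sites of 5 or more reads in a library, measured in at least 2 libraries of each of Type1, Type2, Type5a, Type5b and Type7. A member had a stage level (the mean over libraries of methylated over total reads) under 20% in Type1 and Type2, at least 40% in Type5a and over 70% in Type7, with fewer than 40 CpG sites within 500 bp of its middle. Of 49374 tiles measured that way, 762 (1.54%) met the rule. They made up 16.3% of the 4676 CpG-poor tiles that went from under 20% to over 70%, and the other 3914, called later-gaining tiles here, had Type5a levels under 40%. Of 293 gaining tiles with 40 or more sites nearby, 9 reached 40% in Type5a. The count of 762 dropped to between 453 and 499 when Type1 replicate 1 or 3, Type5b replicate 1 or Type7 replicate 1 or 2 was left out.

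The libraries come from reduced representation bisulfite sequencing (RRBS, which cuts DNA with MspI and reads methylation as unconverted cytosine) of oocytes from B6D2F1 mice, a C57BL/6 x DBA/2 hybrid. There are 31 libraries at 9 stages of follicle growth: Type1 and Type2 from primordial follicles, Type3a and Type3b from primary follicles, Type4, Type5a and Type5b from secondary follicles, and Type6 and Type7 from antral follicles. Type4 and Type5a have 5 libraries each and every other stage has 3. Neither the age of the animals, the number of oocytes per library nor what separates a from b is given in the sources used here, and the labels do not say which animals a library came from, so every spread and p-value below measures differences between libraries, which may be technical.

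Female germ cells enter growth with a largely unmethylated genome. During growth the non-dividing oocyte lays methylation down anew through DNMT3A and its cofactor DNMT3L, mostly across transcribed gene bodies, and the mature egg carries a pattern of heavily methylated blocks separated by unmethylated ones. CpG-rich islands are usually the last sequences to be filled, and some of them become the maternal marks of imprinted genes.

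The letters of 4 members show the CpGs listed in such tiles. The files list each CpG with its neighbouring bases, so the lines give the listed CpGs in capitals, their neighbours in lower case and n for bases that no listed site covers, on the plus strand of mm9. The first 3 were among the members whose lowest Type5a library was highest, and the last lies in the longest run of members.

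chr14:68406031-68406049: gaCGtCGtnnnnnntcCGc
chr12:87160316-87160400: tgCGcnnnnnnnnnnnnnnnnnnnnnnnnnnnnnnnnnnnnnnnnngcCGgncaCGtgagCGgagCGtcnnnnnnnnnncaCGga
chr4:134303999-134304092: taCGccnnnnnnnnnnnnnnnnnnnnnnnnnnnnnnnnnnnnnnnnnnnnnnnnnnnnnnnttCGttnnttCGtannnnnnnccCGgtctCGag
chr13:45662327-45662383: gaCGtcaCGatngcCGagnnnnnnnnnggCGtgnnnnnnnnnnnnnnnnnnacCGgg

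Members had a median of 10 CpG sites within 500 bp, close to the 11 of later-gaining tiles and below the 24 of all measured tiles. The bases next to their CpGs were G or C in 60.8% of cases, against 61.3% in later-gaining and 69.8% in all measured tiles. Low site number was itself part of the rule.

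Depth, summed as read coverage over CpG sites, ran from 7949652 to 60361665 reads per library, with a median of 9 to 28 reads per site. Each library measured 377 to 755 of the 762 members, at a median of 14.2 to 59.3 reads per site. Every stage had 2 or more libraries with a value for 520 members, and 40 had a value in all 31 libraries. A library's X measure, the level of CpG-dense X tiles minus that of CpG-dense autosomal tiles (63 and 2902 tiles with at least 60 sites within 500 bp), is given beside results because CpG islands are methylated on the inactive X of female somatic cells, while growing oocytes keep both X chromosomes active. It was above 0 in 9 libraries.

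Members were nearly unmethylated at the start: 3.22% ± 2.22 in Type2 (SD, n = 3) and 6.67% ± 6.30 in Type1 (n = 3), where the rule fixed a low level. The Type1 libraries read 3.13%, 2.94% and 13.9%, and the highest was the one with an X measure above 0 (1.09). Later-gaining tiles read 5.15% in Type1 and 2.57% in Type2.

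In primary follicles, which played no part in the choice, members averaged 13.7% ± 13.7 in Type3a (n = 3) and 15.7% ± 5.31 in Type3b (n = 3). The Type3a libraries were uneven, at 29.4%, 4.62% and 7.01%, and again the high one had the only X measure above 0 (1.86). Without that library the Type3a mean was 5.82%. In Type3b, where every X measure was below 0, the libraries read 9.63%, 17.9% and 19.5%. Members exceeded later-gaining tiles of the same library by 3.69 points ± 3.88 in Type3a and 3.33 points ± 1.40 in Type3b, with the same sign in 6 of 6 libraries.

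In Type4 secondary follicles members averaged 29.5% ± 16.8 (n = 5) against 20.1% ± 12.0 in later-gaining tiles. Replicates 1, 2 and 5 read 36.1%, 50.5% and 36.2%, while replicates 4 and 6 read 14.2% and 10.6%. The 3 high libraries had X measures of 6.75, 10.6 and 9.94 and the 2 low ones of -3.37 and -0.662, so the groups do not overlap on either measure, and the part of the X signal in the Type4 level was not tested. Members exceeded later-gaining tiles in all 5 libraries, by 3.48 to 15.1 points. When all 9 libraries with an X measure above 0 were left out, which left 364 members chosen anew, Type4 fell to 10.8% and the excess over later-gaining tiles to 2.74 points.

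Of 749 members measured in at least 2 Type4 libraries, 161 (21.5%) had a Type4 stage level of 40% or more, against 387 of 3870 later-gaining tiles (10%). Agreement between Type4 libraries was rare: of 699 members measured in at least 3 of them, 7 were at 40% or more in every one and 131 in none. Among members with 3 or more Type4 libraries the highest stage level was that of chr3:24554201-24554300, which read 71.3%, 60.6%, 90.1%, 63.4% and 83.4% in replicates 1, 2, 4, 5 and 6, high also in the libraries of low X measure. Type3b was already at 69.2% and 76.2%. The tile read 21.6%, 41.8%, 36.0% and 71.1% in Type5a replicates 1, 4, 5 and 7, values that overlap the Type4 range only at the top.

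Type5a was the stage that chose the members, so its levels are a description. Members averaged 48.7% ± 10.7 (n = 5), with 59.8%, 31.3%, 48.2%, 50.0% and 54.3% in replicates 1, 4, 5, 6 and 7. Their X measures were -3.86, -3.66, 0.978, -3.73 and 3.23. Over all measured tiles, which no level chose, the same libraries averaged 21.5%, 18.7%, 25.2%, 21.9% and 28.1%. The part of the X signal in the Type5a levels was not tested. Most stage levels sat just over the threshold, with 428 members between 40% and 50%, 219 between 50% and 60%, 104 between 60% and 80% and 11 at 80% or more. The members nearest the threshold read 40%, 40.01% and 40.03%, and the 3 tiles nearest below it 39.99% each.

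Single Type5a libraries seldom agreed. In 134 members (17.6%) every measured library was at 40% or more, and in 104 (13.7%) only 1 was. Of 170 members measured in all 5, 9 were at 40% or more in each. The median gap between a member's lowest and highest Type5a library was 54.0 points. At chr3:111952501-111952600, for example, replicates 1 and 5 read 0% of 44 and 41 reads, while replicates 6 and 7 read 100% and 85.5%. At chr4:141035101-141035200 replicates 4 and 6 read 0% and 100%, with 29.4%, 42.8% and 40.9% in the others.

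To see how far the choice itself set the Type5a level, members were chosen anew without each Type5a library and then read in it. The level in the library left out was 45.5%, 18.7%, 33.2%, 30.1% and 44.9% for replicates 1, 4, 5, 6 and 7, a mean of 34.5% ± 11.2 (n = 5) rather than the 48.7% of the chosen set. Later-gaining tiles chosen the same way read 25.95%, 8.08%, 20.9%, 13.5% and 29.95%. Members were higher in 5 of 5 libraries, by 14.8 points ± 3.51. The mean in an unused library was thus under the 40% that defines the tiles, and 14.55% to 58.2% of the newly chosen members reached 40% there.

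**Figure D1:**
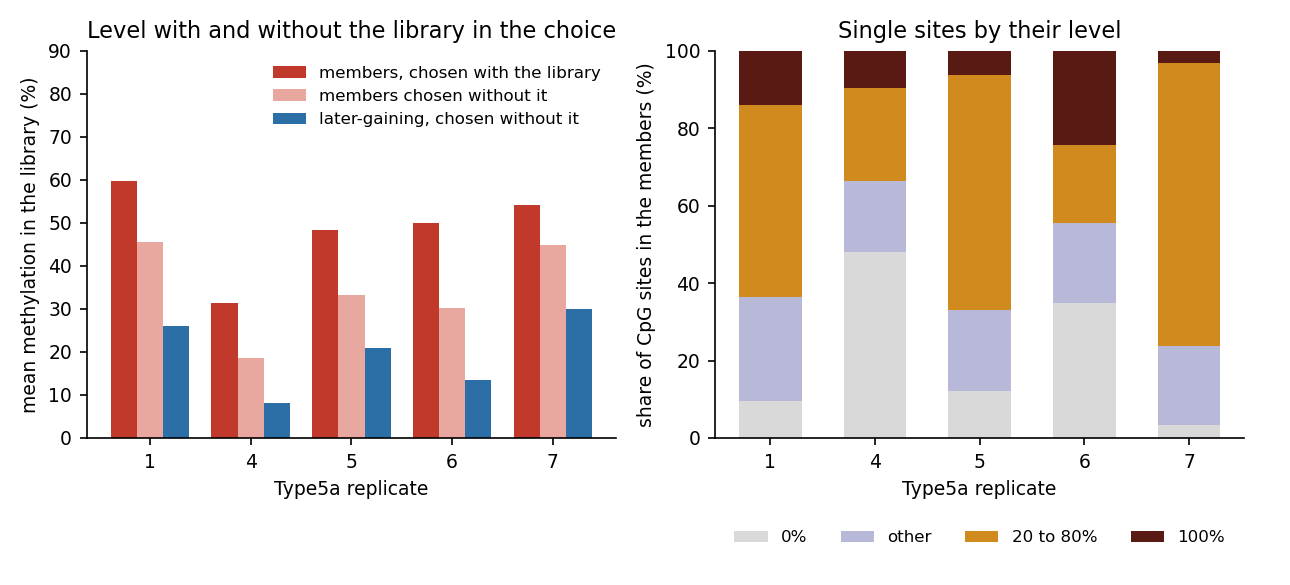
Left, mean methylation (%) in each of the 5 Type5a libraries for members chosen with the library, for members chosen without it and for later-gaining tiles chosen without it. Right, share (%) of single CpG sites inside members at 0%, at 100%, from 20 to 80% and at other levels. Members chosen without a library stay above later-gaining tiles in it but below the chosen level, and replicates 4 and 6 hold more sites at 0% than the others.

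The intermediate Type5a levels were built differently from library to library. In replicate 7, 73.0% of the single CpG sites inside members were between 20% and 80% methylated, 3.34% were at 0% and 3.24% at 100%. In replicate 6 only 19.95% of the sites were in between, with 34.8% at 0% and 24.4% at 100%, and in replicate 4 the shares were 24.0%, 48.0% and 9.69%. Replicates 1 and 5 had 49.6% and 60.6% of sites in between. X measures were above 0 in replicates 5 and 7 and below 0 in replicates 1, 4 and 6. Their part in these shares was not tested. Within members of intermediate level the median gap between lowest and highest site was 97.2 points in replicate 6 and 82.6 in replicate 4, against 30.8 points in replicate 7. Later-gaining tiles of intermediate level in the same libraries showed 93.0, 87.5 and 28.2 points, so the contrast between libraries was not particular to the members.

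Sites read at least 5 times on each strand allow the strands to be compared. One strand was at 80% or more and the other at 20% or less in 15.6% ± 8.75 of the members' sites in Type5a (n = 5), from 5.99% in replicate 7 to 29.9% in replicate 6. The share was 0.582% ± 0.325 in Type2, 12.5% ± 4.33 in Type4, 10.3% ± 1.41 in Type5b, 3.33% ± 1.04 in Type6 and 1.76% ± 0.537 in Type7. Apart from replicate 6 the Type5a libraries read 5.99% to 15.1%, so the higher Type5a than Type4 mean rests on that library. Later-gaining tiles had 7.20% ± 2.58 in Type5a and 15.1% ± 1.74 in Type5b. The number of molecules behind these reads is unknown, and its part in the one-strand share was not tested.

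**Figure D2:**
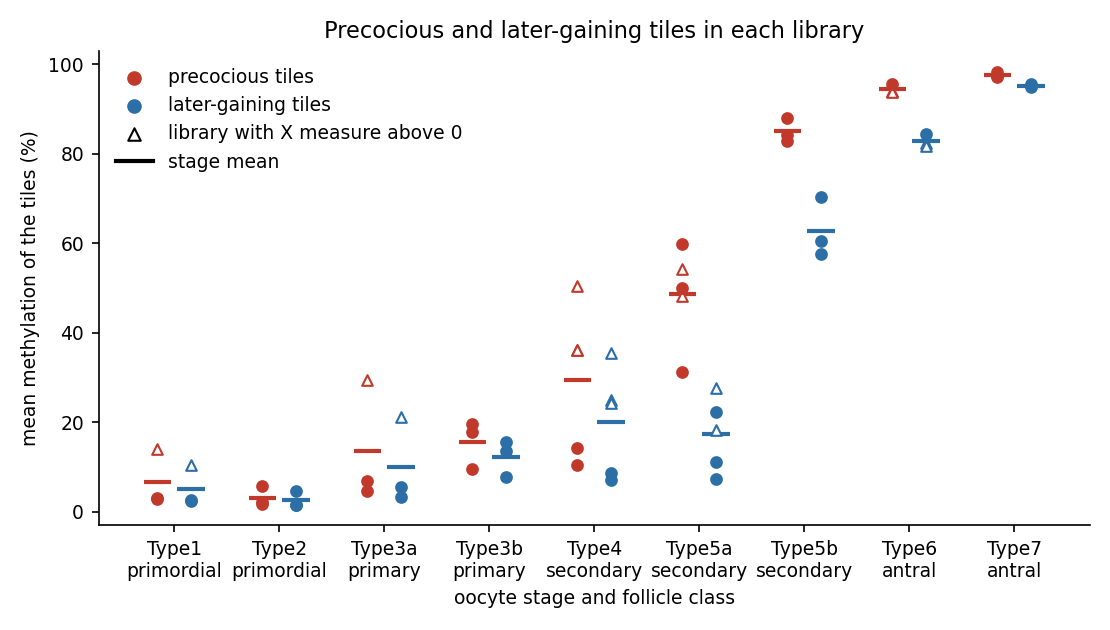
Mean methylation (%) of the 762 precocious and the 3914 later-gaining tiles in each of the 31 libraries by stage, with bars at stage means and open triangles for libraries with an X measure above 0. Precocious tiles lie above later-gaining tiles in every library, most clearly in Type5a, which chose them, and in Type5b.

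In Type5b, a stage whose level the rule did not use, members were close to complete. They averaged 85.0% ± 2.63 (n = 3), with libraries at 87.9%, 84.2% and 82.8%, against 62.8% ± 6.61 in later-gaining tiles, whose libraries read 70.3%, 57.6% and 60.5%. The lowest member value thus lay above the highest later-gaining value, and the excess within a library was 17.7 to 26.6 points. Every Type5b library had an X measure below 0. Of the members, 567 (74.4%) exceeded 80% in Type5b. In Type6 members reached 94.5% ± 0.919 against 82.8% ± 1.36, and in Type7, where the rule asked for over 70%, 97.6% ± 0.549 against 95.2% ± 0.430.

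Most member values were near full by Type5b. The share of member levels between 20% and 80% in a library fell from 70.9% ± 10.9 in Type5a to 23.8% ± 5.94 in Type5b and 7.72% ± 1.53 in Type6. Values over 80% made up 13.5% in Type5a, 73.1% in Type5b and 91.8% in Type6. In later-gaining tiles the share in between was 35.0% ± 17.5 in Type5a, 40.9% ± 4.23 in Type5b and 24.5% ± 1.66 in Type6.

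Tile by tile, the gain from Type4 to Type5b compares 2 stages with no threshold in the rule. A quasi-binomial test of the read counts, run on all tiles with Benjamini-Hochberg adjustment, called 385 of 749 members higher in Type5b (51.4%), none lower, at an adjusted p under 0.05 and at least 20 points. The same test called 5.48% of all 65693 tiles higher and 1690 of 3870 later-gaining tiles (43.7%). Since any gaining tile had to rise between Type2 and Type7, the later-gaining share is the nearer yardstick. The median gain was 57.6 points in members, 47.2 in later-gaining tiles and 0.0 in all tiles. Dropping the 9 libraries with positive X measure gave 308. The count was 128 without Type5b replicate 1, 229 without Type4 replicate 6, 253 without Type5b replicate 3 and 140 with a fit on the 2 stages alone. The share of all tiles called was not computed for these settings.

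Between Type5b and Type6 little was left to gain. The test called 7 of 715 members higher in Type6 (0.979%), beside 1.35% of all 61151 tiles and 251 of 3693 later-gaining tiles (6.80%). A call needed at least 20 points, out of reach for the 567 of 762 members over 80% in Type5b. The count therefore does not show how members differ from other tiles. The test called 1 member lower, against 0.0621% of all tiles. The median change was 6.67 points in members and 16.2 in later-gaining tiles. The 8 calls were 3 without Type5b replicate 1, 5 without Type6 replicate 2, 4 with at most 10 reads counted per site and 2 with a fit on the 2 stages alone.

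From Type3b to Type4 the quasi-binomial test called no member of 625, and limma on tile levels none either. Of all 63468 tiles the quasi-binomial test called 0.00315% higher and 0.00158% lower, and limma called 19 (0.0299%) higher and 4 lower. At an unadjusted p under 0.05 there were 133 members (21.3%), 11.7% of later-gaining tiles and 7.57% of all tiles. The median difference was 16.4 points in members and 6.74 in later-gaining tiles. X measures were above 0 in 3 of 5 Type4 libraries and in no Type3b library, and their part in the difference was not tested.

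The remaining comparisons rest on stages that chose the members, so nothing is read from their counts. Type5b was called higher than Type5a in 112 of 762 members, beside 3.77% of all tiles, and in 12, 69 and 73 without Type5b replicate 1, 2 or 3. Type5a was called higher than Type4 in 0 of 749 by the quasi-binomial test, beside 0.0% of all 84424 tiles. At an unadjusted p under 0.05 there were 227 members (30.3%), 7.11% of all tiles and 10.5% of later-gaining tiles, and limma called 15 members and 0.0746% of all tiles higher. Type4 was called higher than Type2 in 69 of 749, beside 1.47% of all tiles. That last count was 8 without the libraries of X measure above 0 and 0 with at most 10 reads counted per site. It was 12 to 22 without any 1 of the Type2 libraries, 30, 33 and 31 without Type4 replicate 1, 2 or 5, and 221 without Type4 replicate 6.

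Levels on the 2 sides of the 40% threshold lay close together in the other stages. CpG-poor gaining tiles grouped by Type5a level read 41.6% ± 10.2 in Type5b when Type5a was under 10% (1085 tiles), 62.3% ± 6.70 at 10% to 20% and 72.4% ± 5.58 at 20% to 30%. At 30% to 40%, just outside the rule, Type5b was 80.1% ± 4.08, and at 40% to 50%, just inside, 83.3% ± 3.12. The members at 60% or more (115 tiles) read 88.6% ± 0.441. Type4 read 26.4% ± 16.0 just outside and 28.9% ± 15.6 just inside, and Type3b 15.6% ± 4.81 and 15.2% ± 5.198. The steps between the lower classes in Type5b were larger than the step across the threshold. All classes were read in the same libraries, and the differences between them were not tested.

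**Figure D3:**
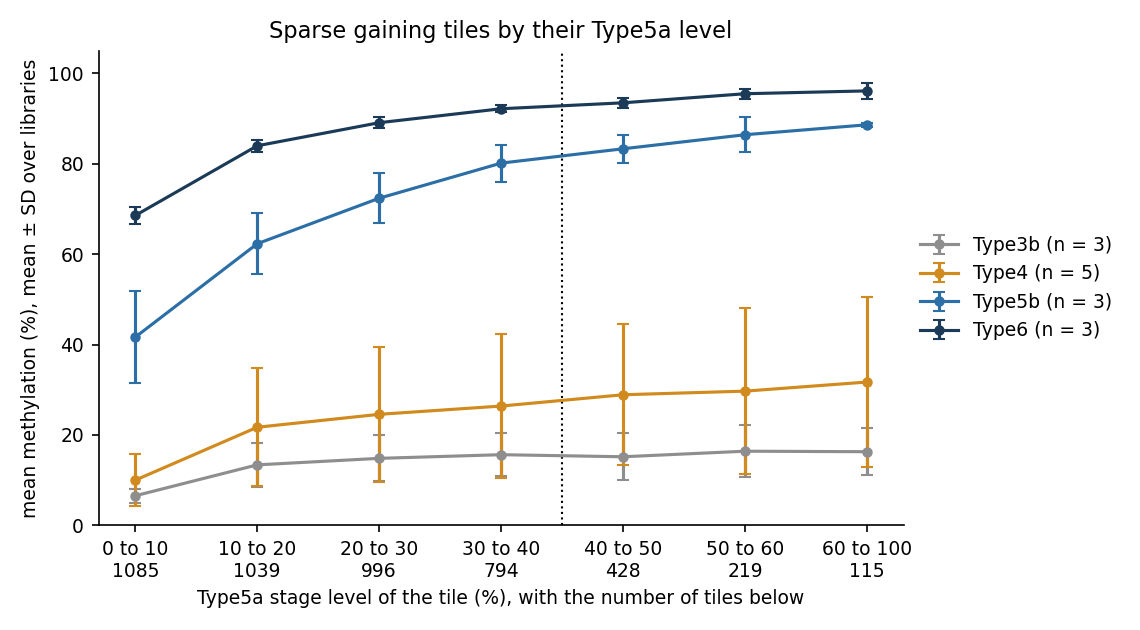
Mean methylation (%) in Type3b, Type4, Type5b and Type6 of CpG-poor gaining tiles grouped by Type5a stage level, with the number of tiles under each class, error bars of 1 SD over libraries and a dotted line at the 40% threshold. Type5b rises from 41.6% in the lowest class to 88.6% in the highest and from 80.1% to 83.3% across the line.

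The 8 members with the highest lowest library in Type5a, all off chromosome 18, are described next, and their Type5a values are the choice itself. chr14:68406001-68406100 read 89.1%, 97.9% and 86.0% in Type5a replicates 1, 5 and 7. Before that it was at 36.9%, 39.1%, 100% and 32.8% in Type4 replicates 1, 2, 4 and 5, and at 3.45%, 0% and 2.94% in Type3b. Every measured Type5b, Type6 and Type7 library read 100%. The 3 sites printed above for this tile were each at 74.2% or more in every one of these Type5a libraries.

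At chr19:26739201-26739300 the Type3b, Type4 and Type5b libraries did not overlap. Its Type4 libraries read 26.3%, 61.0%, 34.0%, 44.7% and 27.6%, all above the 4.91% and 5.41% of Type3b and all below the 98.4%, 100% and 87.0% of Type5b. The gain from Type4 to Type5b was 56.4 points (adjusted p = 0.000219). In Type5a replicates 1, 5 and 7 it was at 88.5%, 84.0% and 84.9%, above every Type4 library.

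chr4:134304001-134304100 gave 89.0%, 82.6%, 91.9% and 78.2% in 4 Type5a libraries and 38.1% to 71.4% in 4 Type4 libraries, with no overlap, although 1 Type3b library was at 60% and Type4 replicate 4, with only 2 covered sites of 5 reads each, read 80% and 100% there. Its gain from Type4 to Type5b passed the test (43.7 points, adjusted p = 0.0343). chr12:87160301-87160400 ranged from 0.343% to 93.6% in Type4 but only from 71.9% to 88.2% in Type5a, and also passed (44.0 points, adjusted p = 0.0231). Its 2 Type5b libraries read 81.4% and 100%, so the highest Type4 library lay between them. The test pools reads, and Type4 replicate 6, at 0.343%, had up to 133 per site, against up to 27 in the other Type4 libraries. The tile's highest libraries in primordial follicles were 32.8% in Type1 and 56.6% in Type2, where its stage level was 19.9%. chr2:155536601-155536700 read 46.4%, 1.16%, 51.6% and 0% in Type4 and 70.4%, 100% and 72.3% in Type5a (Type5b minus Type4 73.7 points, adjusted p = 0.00901). Before that it read 73.8% in the 1 Type3a library that measured it and 0% in 2 Type3b libraries. Its highest Type1 library was at 29.25%. chr5:121495901-121496000 was 0% in every Type3b library and from 0% to 93.6% in Type4, and its gain of 62.2 points to Type5b did not pass (adjusted p = 0.255).

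The other 2 also had raised levels in single primordial and in some primary follicle libraries. chr7:138125401-138125500 reached 40.3% in a Type1 library and 48.4% in a Type2 library. It read 68.2% and 45.6% in Type3a and 47.8% and 100% in Type3b, then 0% to 60.6% in Type4 and 74.6% to 99.2% in Type5a. chr11:119867001-119867100 reached 31.9% in a Type1 library. It was at 86.4% in 1 Type3a library, 56.3% in 1 Type3b library, 75.9% and 48.5% in Type4 and 72.7% to 76.9% in Type5a. Type5a replicate 4 covered 1 site of that tile and read 0% of 7 reads. Their gains from Type4 to Type5b, of 80.2 and 30.7 points, had adjusted p-values of 0.0570 and 0.146.

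**Figure D4:**
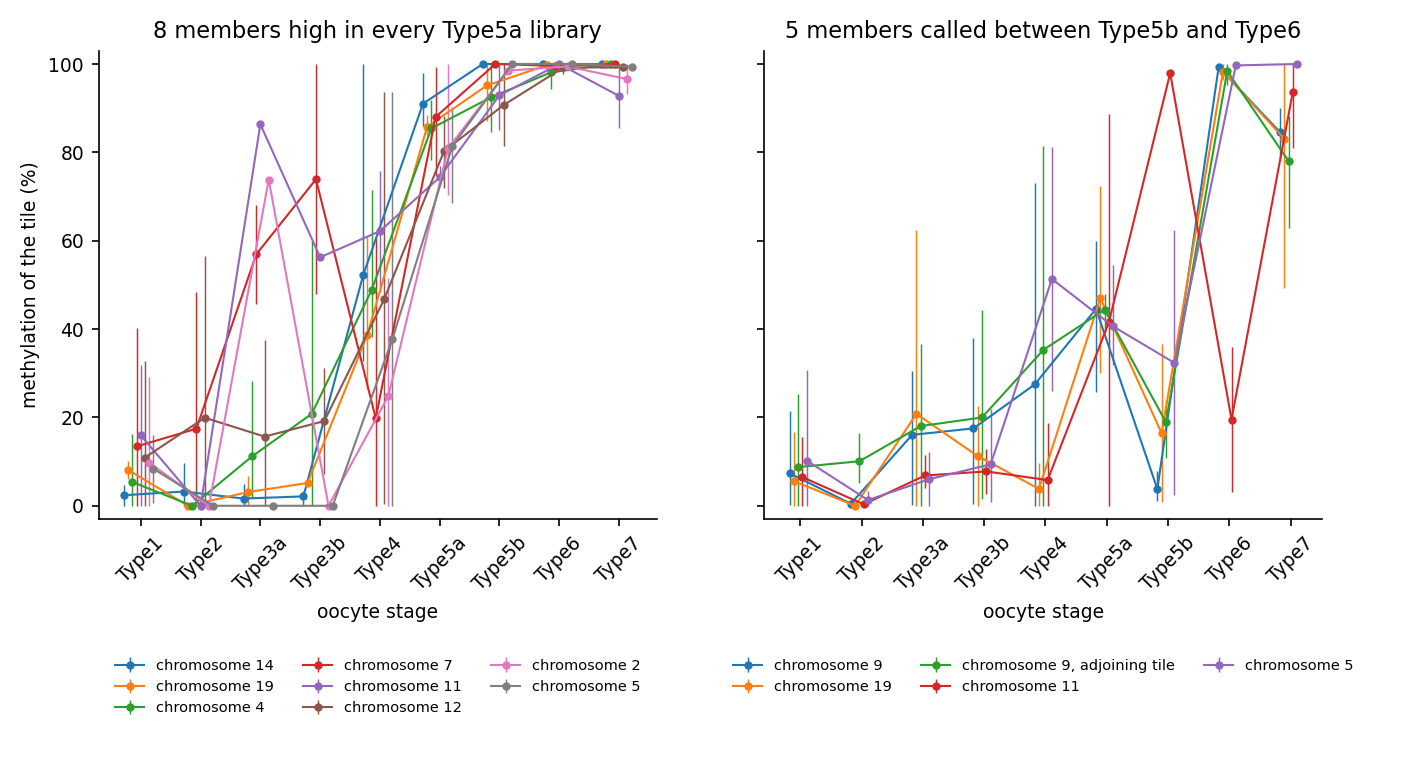
Methylation (%) by stage of the 8 members high in every measured Type5a library (left) and of 5 members called between Type5b and Type6 (right), with points at the library mean and bars from the lowest to the highest library. On the right, 4 tiles are higher in Type6 than in Type5b and the chromosome 11 tile is lower.

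Type5b was lower than Type5a in 37 members (4.86%), and 9 members were under 20% in Type5b. The adjoining tiles chr19:12288501-12288600 and chr19:12288601-12288700 read 68.2% and 45.9%, and 49.4% and 41.0%, in Type5a replicates 1 and 7. In Type5b they read 0.706%, 14.7% and 2.70%, and 0% in each library on 182 to 511 reads. Type6 brought 33.6% to 52.8% and 30.1% to 57.2%, and Type7 replicates 1 and 2 read 97.2% and 74.4%, and 93.8% and 61.9%. Type3b had ranged from 11.9% to 54.2% and Type4 from 0% to 48.6% over both, so the low Type5b libraries followed stages with higher ones.

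chr9:22536101-22536200 had the largest gain among the members called between Type5b and Type6. Type5b libraries read 1.11% (95% Wilson interval 0.432% to 2.81%), 7.95% (6.48% to 9.73%) and 2.28% (0.979% to 5.23%). Type6 libraries read 98.5%, 100% and 99.4%, a gain of 95.5 points (adjusted p = 0.000542). Yet Type5a replicates 1, 5 and 7 read 25.8%, 59.96% and 47.9%, Type4 ranged from 0% to 73.0%, and Type7 libraries were at 90.1%, 85.7% and 78.0%. The adjoining chr9:22536201-22536300 was low in Type5b as well, at 10.9%, 21.8% and 24.0% in Type5b and 95.3%, 100% and 99.9% in Type6 (79.5 points, adjusted p = 0.00709). Coverage there was uneven, from 146 to 2943 reads for the first tile across libraries. In Type5a replicate 7, 4 of its sites read 41.5% to 47.9% on 497 to 514 reads each, while 2 sites read 96.9% and 92.5% on 32 and 40 reads.

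Among the other calls, chr19:22358401-22358500 rose from 11.9%, 36.6% and 0.778% in Type5b to 98.4%, 96.3% and 100% in Type6 (adjusted p = 0.00670). chr5:140246601-140246700 was at 2.36% and 62.3% in 2 Type5b libraries and at 99.03% to 100% in Type6 (adjusted p = 0.0104). The lower call, chr11:106520901-106521000, read 97.8% and 98.1% in Type5b, 3.23% and 35.8% in 2 Type6 libraries and 80.9% to 100% in Type7 (78.4 points lower in Type6, adjusted p = 0.00516). Type6 replicate 1, which covered 2 sites of this tile and so fell short of the 3 required, read 100% at both on 27 reads each, against that direction. With a fit on Type5b and Type6 alone these 3 no longer passed (adjusted p of 0.0556, 0.122 and 0.128), and the chromosome 19 tile also lost its call without Type6 replicate 2 (adjusted p = 0.151). The chr9:22536201-22536300 call was lost without Type5b replicate 2 (adjusted p = 0.0714).

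Joined where their starts lay at most 1000 bp apart, members formed 680 runs, 602 of them of a single tile. Only 305 of the 762 members had another measured tile within 1000 bp, so the others could not join a longer run. In all, 160 members (21.0%) lay in runs of 2 or more, against 36.4% of the more numerous later-gaining tiles. The part of coverage in these shares was not tested. The longest run held 5 members on chromosome 13, between chr13:45662201-45662300 and chr13:45663401-45663500. Its Type5a stage levels were 54.0%, 43.7%, 49.9%, 54.1% and 40.2%, all over the 40% that chose them. In Type4, which the rule did not use, they were 45.8%, 41.7%, 13.4%, 20.5% and 30.5%, and in Type5b 93.3%, 95.8%, 76.1%, 77.5% and 89.2%. Single libraries were uneven along the run: in Type5a replicate 4 the 5 tiles read 0%, 22.7%, 3.70%, 77.5% and 31.8%.

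Later-gaining tiles beside members had a higher Type5a mean than later-gaining tiles at large. Another measured tile lay within 1000 bp of 305 members, and of the 214 such tiles outside the set 147 were later-gaining. Those averaged 29.2% in Type5a and 79.3% in Type5b, against 18.5% and 63.1% over all later-gaining tiles. Neighbouring tiles can share fragments and oocytes, so this is a description.

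Members were found on every chromosome of the measured set, from 17 on chromosome 6 to 89 on chromosome 5. As a share of CpG-poor gaining tiles they ranged from 8.95% on chromosome 6 to 21.8% on chromosome 1, with 18 of 86 (20.9%) on the X.

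Few members matched a promoter. Tiles were placed on RefSeq promoter windows (250 bases before to 50 after a gene's start, GRCm38.p6) by matching the spacing and letters of their listed CpGs. A window was matched by 3 of the 744 members on its chromosomes (0.403%), against 61 of 3832 later-gaining tiles (1.59%) and 3124 of 47817 measured tiles (6.53%). The 250 bases before each start are printed with the part of the tile that falls in them in capitals, 5′ to 3′ on the gene's strand, since these are the only members tied to a gene here.

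Fcamr, chr1:130800652-130800901, plus strand: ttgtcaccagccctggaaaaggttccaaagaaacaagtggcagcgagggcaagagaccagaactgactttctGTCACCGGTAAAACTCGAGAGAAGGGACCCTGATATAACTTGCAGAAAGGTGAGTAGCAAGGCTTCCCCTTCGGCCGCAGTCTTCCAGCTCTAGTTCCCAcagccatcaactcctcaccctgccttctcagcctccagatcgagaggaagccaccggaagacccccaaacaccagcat
Zscan22, chr7:12897559-12897808, plus strand: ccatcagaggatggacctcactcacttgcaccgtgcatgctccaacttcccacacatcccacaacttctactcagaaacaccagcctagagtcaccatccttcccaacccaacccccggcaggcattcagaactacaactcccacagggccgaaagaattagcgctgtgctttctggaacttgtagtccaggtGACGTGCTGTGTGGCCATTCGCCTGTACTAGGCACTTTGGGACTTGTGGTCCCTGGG
2610307P16Rik, chr13:28885423-28885672, minus strand: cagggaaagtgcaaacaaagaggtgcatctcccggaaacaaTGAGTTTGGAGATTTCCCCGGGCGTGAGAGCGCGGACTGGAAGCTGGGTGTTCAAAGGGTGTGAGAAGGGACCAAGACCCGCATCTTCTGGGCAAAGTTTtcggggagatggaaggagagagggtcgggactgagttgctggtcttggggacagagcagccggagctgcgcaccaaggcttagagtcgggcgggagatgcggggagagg

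Fcamr encodes an Fc receptor for IgA and IgM. Its tile (mm9 chr1:132697301-132697400, 178 to 79 bases before the start, 4 CpGs) read 91.7%, 34.3% and 25% in Type5a replicates 1, 4 and 7. Type5b gave 95.5% and 20.6%, with its 2 libraries far apart, as in Type5a, and the 1 Type6 library read 100%. With 1 Type4 library it could not enter the comparison with Type4.

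Zscan22 encodes a zinc finger protein with a SCAN domain. Its tile (mm9 chr7:13483101-13483200, from 57 bases before to 42 after the start, 6 CpGs) read 70.7%, 18.6%, 82.9% and 11.8% in Type5a replicates 1, 5, 6 and 7, with no value in the middle. Type4 libraries read 20.7%, 0% and 0% and Type5b libraries 100% and 89.8% (adjusted p = 0.00499). Type6 read 74.1%, 75% and 100%.

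The tile upstream of 2610307P16Rik (mm9 chr13:28977401-28977500, 209 to 110 bases before the start, 5 CpGs) read 91.2%, 19.1%, 28.6% and 27.0% in Type5a replicates 1, 4, 5 and 7, so 1 library carried its stage level. Type4 libraries read 9.20%, 8.45%, 11.8% and 60%, and Type5b libraries 100%, 25% and 68.0% (Type5b against Type4 adjusted p = 0.00747). Type6 was at 94.9% to 100%.

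The levels of single tiles in single libraries are only as precise as their reads. Over the 846 such values of the named members the 95% Wilson interval had a median width of 8.15 points and a largest of 41.1, on 15 to 2943 reads. The 187 values of 0 allow levels of up to 0.197% to 20% by the limit of 3 counts. Reads carry no molecular identifiers, so these intervals cover counting error only.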

How the data were processed

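The authors deposited, for each of the 31 libraries, a table of CpG sites with the methylated fraction and the counts of total and methylated reads, in all and by strand, read here from the values as the tables have no header. Reads were handled with BSMAP 2.89 on mm9, per the submitters' processing notes; no source used here gives trimming or filters. Groups follow the titles, since 1 label names embryo stages instead. From the deposited counts, sites of at least 5 reads were summed over 100-bp tiles. Stages were compared with a quasi-binomial model (stage as factor, all libraries, no replicate block), whose dispersion was at least 1 and moderated by the method of limma's squeezeVar. Tests ran in R 4.3.3 (limma 3.58.1) and Python 3.11.15 with scipy 1.17.1, pandas 2.3.3 and numpy 2.4.6. The test was checked on simulated data: it kept its rate where spread shrinks with reads as the model assumes, and exceeded it where spread does not. Which case these data are nearer to was not tested, so adjusted p-values and counts of calls may be too liberal. Limma on tile levels was run beside the quasi-binomial test on the real data and was not checked on the simulated data. The members and lists were chosen with earlier results of these data known.

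Named tiles, off chromosome 18, were the 8 with the highest lowest Type5a library and the 5 highest in Type4 (both measured in at least 3 libraries), the 5 of widest Type5a range, the 5 with the largest Type5a excess over Type5b, the longest run, the 3 on each side of the threshold, and up to 5 called between Type6 and Type5b or Type4 and Type3b, of which examples are given. The 3 promoter tiles, the CpG sites within tiles, the strands and the choice without a Type5a library were added after values were seen. The design foresaw no sequences without an mm9 genome; those printed come from the context letters of the deposited tables and from RefSeq promoters of GRCm38.p6, which has no chromosome 18 entries here. Replicate numbers are not known to pair libraries; correlations of same-numbered libraries' deviations ranged from -0.0504 to 0.233 over the 6 comparisons. Alternatives were 10 reads per site, at most 10 reads per site, means of site fractions, 4 sites per tile, 3 libraries per stage, a grid shifted by 50 bp, a Type5a threshold of 50%, leaving out each library or the libraries with an X measure above 0, limma, a fit on 2 stages and a replicate block.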

Additional observations from a re-analysis of the deposited data

Results flagged for a closer look

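In 3 of 50 sets of 4 or 5 library values examined, 1 library stood far from the rest by Dixon's ratio, about the 1 in 20 that chance gives. All were single tiles in Type4. At chr3:89792601-89792700 replicate 6 read 45% and the other 4 libraries 0%. At chr13:45662601-45662700 replicate 5 read 47.8%, above 0%, 0% and 5.84%. At chr14:68406001-68406100 replicate 4 read 100%, above 32.8% to 39.1%. The X measures of these libraries were -0.662, 9.94 and -3.37.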

How the results depend on the processing

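The number of members depended on what had to be measured: 475 at 10 reads per site, 405 at 4 sites per tile, 192 at 3 libraries per stage, 334 at a Type5a threshold of 50%, and 364 (240 shared with the 762) when the 9 libraries with positive X measure were dropped. It ranged from 453 to 1033 when a library was left out. Shifting the grid by 50 bp gave 754, of which 511 overlapped a member.

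Of 350 recomputed stage means and differences from later-gaining tiles, 339 moved by less than 1 SD between libraries. A mean level cannot change sign, and no difference did. Leaving out a Type3a, Type3b, Type4 or Type6 library cannot move the other stages, so many of the 350 repeat the main value. The SD could be wide: Type3a, at 13.7% with an SD of 13.7, counted as unmoved at 5.82%. Without the libraries of X measure above 0 Type4 read 10.8% and its difference 2.74 points, and the Type6 difference was 9.99 points; at 10 reads per site the latter was 10.96. Leaving out a library gave ranges of 81.6% to 86.2% in Type5b and 93.3% to 94.8% in Type6, with differences of 17.6 to 24.8 and 9.87 to 12.3 points.

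Counts of called members, for the same 762, moved with the fit. Except for limma, the share of all tiles called was not computed for these settings. The counts are therefore not read as results about the members. The fit on 2 stages called 2 (Type6 against Type5b), 140 (Type5b against Type4), 52 (Type5b against Type5a) and 1 (Type4 against Type2). The replicate block called 20, 87, 8 and 181 in that order, 13 for Type4 against Type3b and 8 for Type5a against Type4. The numbers do not show pairing: with 3 or more shared numbers, 3 of 6 libraries of Type5b and Type6 and 4 of 8 of Type4 and Type5a were closest to their own number. At most 10 reads per site gave 4 for Type6 against Type5b and 0 for Type4 against Type2. Without the libraries of X measure above 0, Type5a against Type4 gave 30 and Type4 against Type2 8, and Type6 against Type5b could not be tested. Limma gave 15 for Type5a against Type4 and 12 for Type4 against Type2, beside 0.0746% and 0.219% of all tiles called higher. Leaving out a library gave 3 to 9, 128 to 415, 12 to 115, 0 to 4 and 12 to 221, for Type6 against Type5b, Type5b against Type4, Type5b against Type5a, Type5a against Type4 and Type4 against Type2. The cause of these shifts was not tested, beyond fewer libraries or sites entering. Counting error gave single named values a median interval of 8.15 points.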

Other observations

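CpG sites inside the MspI recognition sequence CCGG made up 15.2% of the members' sites and read higher than the other sites of the same tiles while the tiles were nearly empty. The difference in primordial follicles was 5.48 points ± 1.54 (Type1) and 5.71 ± 1.83 (Type2), and in primary follicles 6.44 ± 0.735 (Type3a) and 7.11 ± 1.10 (Type3b; SD, n = 3 each), positive in 12 of 12 libraries. It was 2.37 points ± 2.01 in Type4 and -2.16 ± 2.12 in Type5a (n = 5 each), and -0.380 ± 0.137 in Type7 (n = 3). CCGG sites lie at fragment ends in this assay, and the part of that position in the difference was not tested.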
